A study of Drosophila melanogaster with 54 samples.

Results

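The data described here compare male with female Drosophila melanogaster embryos when the gene mof is lowered in both sexes by RNA interference (RNAi). The members were chosen by the labels of the late-stage (St15) count table, which gives 3 mof RNAi male libraries (numbered 1, 2 and 4) and 4 mof RNAi female libraries (numbered 1 to 4). These are 7 of the 54 libraries of the series, which also holds 3 control male and 3 control female libraries of St15, used here only as the same sex comparison with mof not lowered, and libraries of younger embryos and cultured cells that are not used. Each St15 library is polyA RNA from 25 pooled embryos aged 14 to 16 h. All St15 embryos descended from mothers with the driver mat-a-tubGal4 (Bloomington stock 7062), which is active in the maternal germline, mated with their own siblings. For mof RNAi the mothers also carried the RNAi stock 58281, and for controls stock 36304. Every embryo was in an Sxl-GFP background, in which females glow, and males were picked as GFP negative and females as GFP positive. The genotype text of the St15 mof libraries reads control but gives the mof stock number, so the titles were followed, and the mof counts of these libraries were low. Any difference in background between the 2 RNAi stocks cannot be told apart from the lowering of mof wherever mof and control embryos are set side by side, whereas mof males and mof females carry the same stock.

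Male flies carry 1 X chromosome and females 2. Males make up for the missing copy with the male-specific lethal (MSL) complex, which spreads over the male X and raises its transcription. Its proteins are MSL1, MSL2, MSL3, the helicase MLE and the histone acetyltransferase MOF, and it also holds a noncoding RNA, roX1 or roX2. MSL2 is made only in males because the female splicing regulator Sex lethal (Sxl) blocks it, and MOF is also part of the NSL complex, which works in both sexes on genes of all chromosomes. A sex comparison with mof lowered therefore asks how far X expression in males falls below that of females, gene by gene.

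Levels are given as CPM, the counts of a gene scaled to a common library size, after TMM normalisation, which assumes that most genes are alike. Values of libraries are given in the order 1, 2 and 4 for males and 1 to 4 for mof females. A value followed by ± and no unit is a log2 fold change of males over females with its standard error, so -1 is 50% of the female level, the share set by copy number alone, and 0 is equality. Adjusted p comes from edgeR's quasi-likelihood test over all 10684 genes tested, with Benjamini-Hochberg adjustment, and genes under 0.05 passed. "Higher" and "lower" describe males relative to females. Depth was 20690817 to 21741938 counts in mof males, 21084864 to 38076982 in mof females and 19018190 to 24541975 in the controls, and 48.5% of all genes tested passed between mof males and mof females, 24.4% higher and 24.1% lower. The labels name pools but not separate crosses or days, so p-values measure the spread between these pools.

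mof itself (X:5873840-5876853, dm6) was low in both sexes. It stood at 2.94, 2.43 and 2.16 CPM in mof males, against 2.65, 3.36, 2.98 and 2.67 CPM in mof females, and the groups overlapped (-0.21 ± 0.24, edgeR adjusted p = 0.492). In controls mof was at 18.6, 37.1 and 18.8 CPM in males, with library 2 apart, against 10.9, 11 and 11 CPM in females. The Y-linked gene FDY, a marker of male embryos, was at 7.78, 9.78 and 9.32 CPM in mof males, against 0.0271, 0, 1.90 and 0.0972 CPM in mof females. Mof female library 3 stands apart here, with 40 counts on the Y chromosome against 1 or 2 in each other mof female library and 179 to 250 in mof males, while its roX1 level did not stand apart. Without that library 4461 genes passed in place of 5185, 3139 autosomal genes in place of 3815, and 1208 X genes were lower in place of 1238. Some further results without it are given below, in part with mof male 1 left out as well.

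The roX RNAs, which coat the male X, were higher in males although mof was low. roX1 (X:3857230-3862697) was at 267, 305 and 228 CPM in mof males, against 40.1, 39.0, 43.9 and 42.2 CPM in mof females (2.69 ± 0.11, edgeR adjusted p = 7.98e-09). roX2 (X:11579065-11580432) was at 13.8, 16.1 and 12.8 CPM in mof males, against 2.30, 2.76, 2.0 and 2.48 CPM in mof females (2.57 ± 0.14, edgeR adjusted p = 5.43e-08). No mof male overlapped a mof female for either RNA. The sex difference was smaller than in controls, where roX1 was at 851, 856 and 865 CPM in males, against 52.7, 47.1 and 38.0 CPM in females. The difference of the sex effects, mof less control, was -1.53 ± 0.15 for roX1 (edgeR adjusted p = 4.75e-05) and -1.96 for roX2 (edgeR adjusted p = 8.18e-05).

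**Figure D1:**
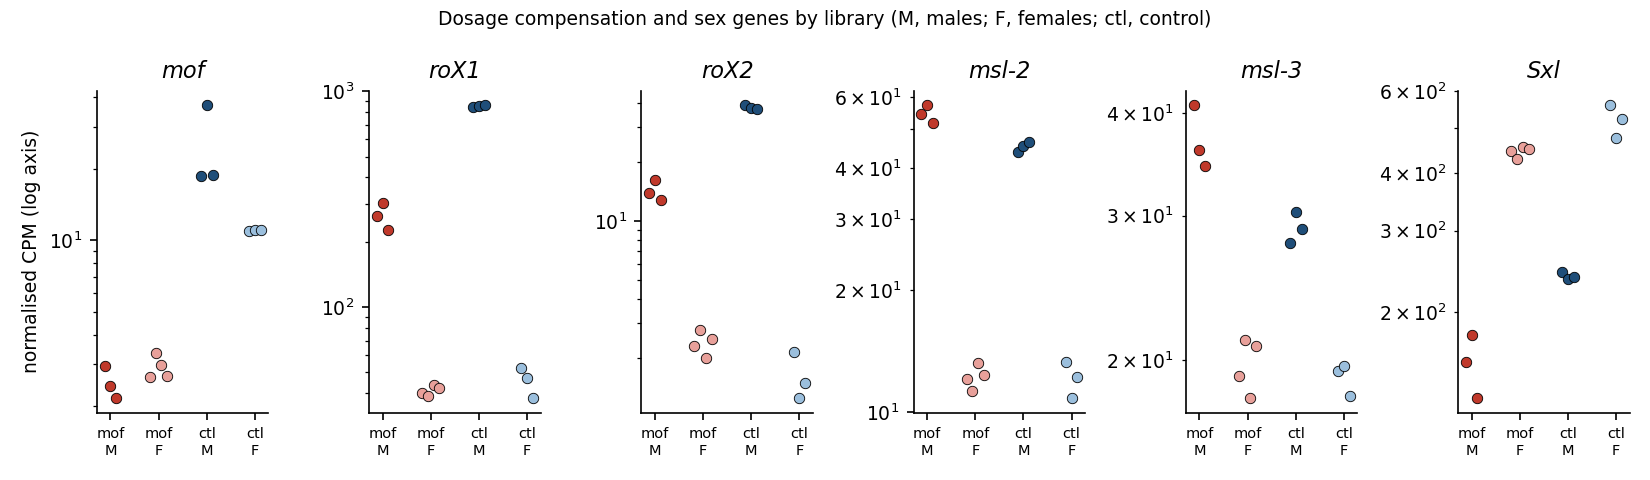
Levels of mof, roX1, roX2, msl-2, msl-3 and Sxl in each of the 13 late libraries, as normalised CPM on log axes that differ between panels; each point is 1 library. The mof RNAi males lie above the mof RNAi females for both roX RNAs, msl-2 and msl-3, below them for Sxl, and among them for mof.

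The autosomal genes for the other MSL proteins were higher in mof males. msl-2 (2L:3462218-3466112), the male-limiting subunit, was at 54.5, 57.2 and 51.6 CPM in mof males, against 12.1, 11.3, 13.2 and 12.3 CPM in mof females, with a wide gap between the groups (2.16 ± 0.08, edgeR adjusted p = 4.08e-09). msl-3, whose protein reads a histone mark, was at 40.9, 36.1 and 34.5 CPM in mof males, against 19.1, 21.2, 18.0 and 20.8 CPM in mof females (0.91 ± 0.08, edgeR adjusted p = 1.48e-06). msl-1, the scaffold, was higher by 0.66 ± 0.11, mle, the roX helicase, by 0.37 ± 0.06, and Clamp, whose zinc finger protein binds the GA-rich entry sites of the complex, by 0.26 ± 0.07 (largest edgeR adjusted p of the 3 is 0.0102). In controls msl-2 (1.90) and msl-3 (0.61) also passed, while msl-1 (0.36), mle (0.22) and Clamp (0.10) did not, and for none of the 5 did the difference between mof and control embryos pass. Of the 8 genes of the MSL and roX list, 7 were higher, against 24.4% of all genes tested. roX1, msl-3 and Clamp overlap another protein-coding gene, and as no source used here says whether counting was stranded, their values are uncertain. Without mof male 1, Clamp gave 0.20 and did not pass (edgeR adjusted p = 0.0521).

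Among 12 sex determination genes, 4 were higher and 3 lower, beside 24.4% and 24.1% of all genes. Sxl, the female switch gene, was at 156, 178 and 130 CPM in mof males, against 446, 428, 454 and 450 CPM in mof females (-1.52 ± 0.09, edgeR adjusted p = 8.62e-08). The embryos were sorted on an Sxl-GFP marker, and whether its transcript adds to Sxl counts was not tested. dsx, the most downstream regulator of somatic sex, was lower (-0.73 ± 0.18, edgeR adjusted p = 0.00533), as was the X-linked splicing factor gene snf (-0.54 ± 0.08, edgeR adjusted p = 0.000147). tra2, a splicing partner of tra, was higher (0.44 ± 0.07, edgeR adjusted p = 0.000282), and tra, whose sex difference lies in splicing, gave -0.06 ± 0.15 (edgeR adjusted p = 0.77). dsx, tra and tra2 overlap other genes.

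X expression as a whole was lower in mof males. Summed over genes, the X:autosome ratio of counts, on the log2 scale, was -2.92, -2.98 and -2.96 in mof males, against -2.46, -2.41, -2.42 and -2.43 in mof females. All 3 males lie below all 4 females, and the mean difference of -0.52 puts the male X at 69.6% of the female ratio (two-sided exact permutation test, p = 0.0286, the smallest p that 3 against 4 libraries allow, 0.114 after Benjamini-Hochberg over 4 ratios). Controls gave -2.51, -2.52 and -2.52 in males, against -2.43, -2.41 and -2.43 in females, a difference of -0.10 or 93.5% (exact permutation p = 0.1, the smallest that 3 against 3 allow, 0.2 after adjustment). Thus the mof females sat at the level of the control females, and the mof males stood apart from all other late libraries. The share of counts on X was 10.2 to 10.7% in mof males, against 14.3 to 14.7% in mof females.

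**Figure D2:**
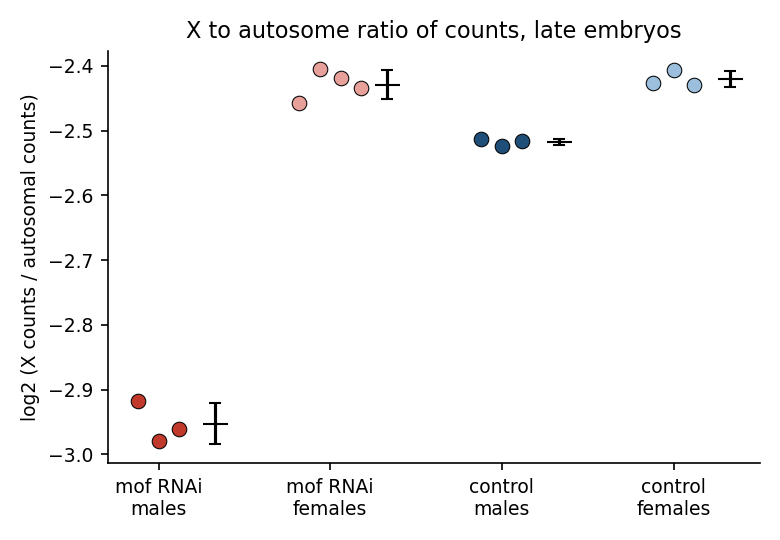
X:autosome ratio of summed counts, as log2, in each late library (points), with the mean and SD of the group beside them. The 3 mof RNAi males sit between -2.98 and -2.92, below the 4 mof RNAi females at -2.46 to -2.41 and below the 6 control libraries.

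Counted by gene, the change covered most of the X. Of 1696 X genes tested, 1238 were lower and 25 higher in mof males, which is 73% and 1.47%, and 74.5% together. Of 8767 autosomal genes 14.7% were lower and 28.8% higher, 43.5% together. The median log2 fold change was -0.58 over X genes and 0.07 over autosomal genes. The gap of -0.65 between these medians corresponds to 63.7% of the female level and, as a difference within libraries, is not set by the scaling between them. Each male library showed it when set against the mean of the mof females, after adding 0.5 CPM to each value. The X median less the autosomal median was -0.59, -0.64 and -0.65 in mof males 1, 2 and 4, against -0.01, 0.02, -0.01 and 0.00 when each mof female was set against the other females. Likewise 85.6, 91.0 and 94.3% of X genes were below the female mean in mof males 1, 2 and 4, so no single library carries the result. Of the X genes, 1242 had groups that did not overlap, 1216 of them lower in males, while 48.7% of all genes tested had groups that did not overlap.

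**Figure D3:**
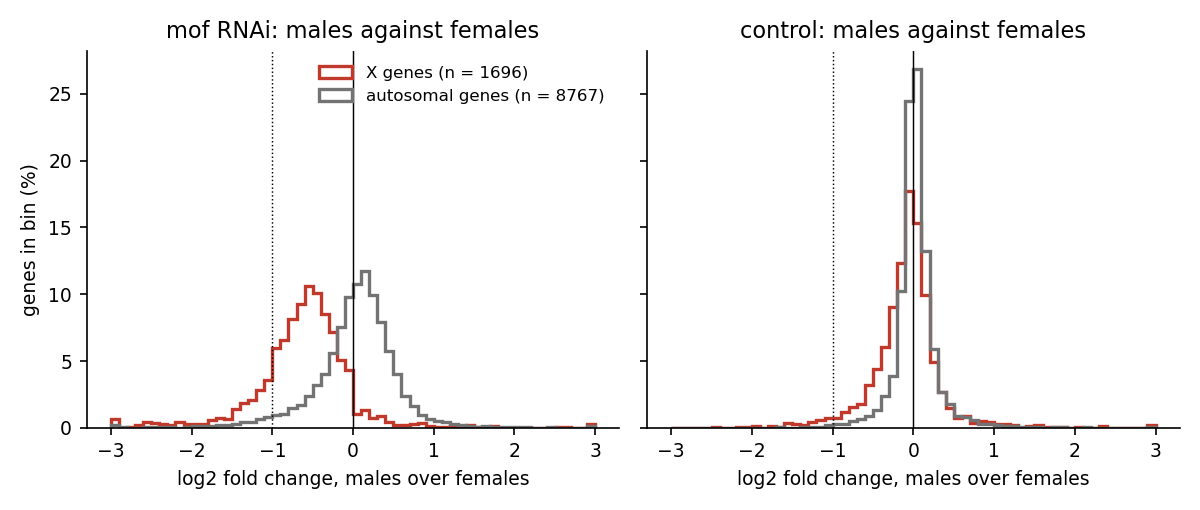
Distribution of log2 fold changes, males over females, over X genes (red) and autosomal genes (grey), as the percentage of genes in bins of the log2 fold change, with values beyond the axis placed in the end bins. The left panel shows mof RNAi embryos and the right panel controls; the solid line marks equality and the dotted line 50% of the female level. X genes are centred at -0.58 in mof RNAi embryos and at -0.06 in controls.

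Chromosome 4, a small autosome with a chromosome-wide protein coat of its own, gave another picture. The log2 ratio of its counts to those of the other autosomes was -5.05 ± 0.0767 in mof males and -5.04 ± 0.0662 in mof females (SD, n = 3 and 4, two-sided exact permutation p = 0.829). Of its 91 genes tested, 7 were higher and 22 lower in mof males, with a median of -0.08. The large arms had medians of 0.09 (2L), 0.05 (2R), 0.07 (3L) and 0.10 (3R), with 26.6 to 30.6% of genes higher and 13.9 to 15.3% lower. The lower share on chromosome 4, 24.2%, was therefore above that of the large arms, and its higher share, 7.69%, was below; a test of that difference was not made.

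The size of the X difference varied from gene to gene. A fold change below -1.5 was seen in 95 X genes, one between -1.5 and -1 in 199, between -1 and -0.75 in 276, between -0.75 and -0.5 in 412, between -0.5 and -0.25 in 379, between -0.25 and 0 in 218, and at or above 0 in 117. Read with 95% intervals, 776 X genes (45.8%) lay wholly between 50% and 100% of the female level. For 415 genes (24.5%) the interval held 50% and not equality. Another 292 (17.2%) held equality and not 50%, 72 (4.25%) held both and could not be placed, 109 (6.43%) lay wholly below 50%, and 32 (1.89%) lay wholly above equality. With the autosomal median of 0.07 subtracted, these classes held, in the same order, 745, 470, 235, 80, 137 and 29 genes. On both scales the most common outcome was thus a partial difference, smaller than the difference in copy number.

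X medians varied little with the level and the length of genes. Over quartiles of mean level from lowest to highest, X medians were -0.61, -0.58, -0.52 and -0.61. Over quartiles of gene span from shortest to longest they were -0.65, -0.55, -0.57 and -0.56. The share called lower rose with level, 47.4, 76.9, 80.7 and 87.0%. Along the chromosome, every 1 Mb bin had a median below 0. The smallest were -0.39 over 51 genes in the bin from 4 to 5 Mb and -0.44 over 68 genes from 17 to 18 Mb, and the largest was -0.72 over 41 genes from 20 to 21 Mb.

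The X genes with the highest levels show the range where counts are large. up, which encodes the flight muscle and body wall muscle troponin T, was at 1958, 1806 and 2552 CPM in mof males, against 2839, 2932, 3242 and 3037 CPM in mof females (-0.52 ± 0.10, edgeR adjusted p = 0.00118). RpL7A, a protein of the large ribosomal subunit, was at 2032, 1934 and 2098 CPM in mof males, against 2853, 2677, 2464 and 2672 CPM in mof females (-0.40 ± 0.06, edgeR adjusted p = 0.00018). In both cases all males lay under all females, with mof male 4 nearest to them. Act5C, the cytoplasmic actin, differed less (-0.23 ± 0.06, edgeR adjusted p = 0.00779, and -0.14 with 0.0567 without mof male 4), and the membrane skeleton gene beta-Spec lay between (-0.39 ± 0.05, edgeR adjusted p = 6.61e-05). CG2962 differed by -1.11 ± 0.25 (edgeR adjusted p = 0.00403) but varied between libraries. It was at 2466, 1616 and 3338 CPM in mof males, against 4331, 6561, 5534 and 4929 CPM in mof females. In controls it gave -0.86 and did not pass (edgeR adjusted p = 0.194), and the difference between mof and control embryos did not pass either (edgeR adjusted p = 0.672).

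Some abundant X genes did not pass. Hsc70-3, the chaperone of the endoplasmic reticulum, was at 1212, 1305 and 1021 CPM in mof males, against 1263, 1323, 1120 and 1327 CPM in mof females (-0.09 ± 0.09, edgeR adjusted p = 0.416). Its 95% interval, -0.29 to 0.10, excludes 50% of the female level. The eye colour gene w was at 77.7, 71.0 and 92.3 CPM in mof males, against 85.9, 83.3, 88.3 and 82.5 CPM in mof females (-0.08 ± 0.08, 95% interval -0.26 to 0.09, edgeR adjusted p = 0.42). Males and females overlapped for both genes. w is on the list of strain marker genes, and whether marker genes carried by the stocks add to its counts was not tested. CG9411 gave -0.13 ± 0.12 (edgeR adjusted p = 0.372), and the receptor gene N gave 0.18 ± 0.13 (edgeR adjusted p = 0.287). w and CG2962 overlap other genes, as does beta-Spec.

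Of 32 X genes with a long history in fly genetics, 24 were lower and 1 higher, the last under a symbol whose match is doubtful, with a median of -0.44, beside 73% lower over all X genes. shi (X:15892116-15906716), the dynamin of synaptic vesicle uptake, was close to 50% of the female level. It was at 153, 146 and 157 CPM in mof males, against 287, 287, 309 and 285 CPM in mof females (-0.94 ± 0.05, edgeR adjusted p = 4.18e-08), and the spread within each sex was small beside the gap. Larger differences were seen for v, the tryptophan oxygenase of the eye pigment pathway (-1.74 ± 0.19, edgeR adjusted p = 2.7e-05), and Hk, a subunit of potassium channels (-1.10 ± 0.19, edgeR adjusted p = 0.00038). For y, needed for dark cuticle, the difference was -2.06 ± 0.51 (edgeR adjusted p = 0.00819). Both v and y are on the list of strain marker genes, and whether alleles carried by the stocks affect their levels was not tested. y overlaps another gene, and its level differed widely among the controls, from 1.6 to 8.92 CPM in control males and from 6.18 to 17.3 CPM in control females.

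The lowest X genes fell into those stable across libraries and those that were not. CG7322 (X:18855873-18857757) was at 3.13, 3.92 and 4.09 CPM in mof males, against 23.7, 18.3, 21.9 and 18.7 CPM in mof females, or 18.0% of the female level (-2.47 ± 0.13, edgeR adjusted p = 5.24e-08). Each male was below each female by a wide margin. CG14795 (-2.39 ± 0.22), CG12116 (-2.32 ± 0.23) and CG3823 (-2.12 ± 0.20) were also lower (largest edgeR adjusted p 7.49e-06), the first 2 of them overlapping other genes. CG14439 (-2.93 ± 0.83, edgeR adjusted p = 0.0152) was at 0.617, 1.58 and 1.18 CPM in mof males, against 10.3, 3.71, 15.4 and 5.10 CPM in mof females. Mur18B, a mucin-related gene (-2.52 ± 0.78, edgeR adjusted p = 0.0233), varied as much between females. When mof male 1 was left out these last 2 no longer passed (-2.62 and -2.21, edgeR adjusted p = 0.066 and 0.0914), and neither did Mur18B without mof male 2, mof male 4 or mof female 3 (-2.74, -2.59 and -2.15, smallest edgeR adjusted p 0.0534).

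Of the 25 X genes higher in mof males, the roX RNAs had the largest difference among those at 4 CPM or more, a mean log2 CPM of at least 2. The next by this measure were far smaller. CG12096 (X:13159604-13162854) was at 6.12, 6.90 and 6.59 CPM in mof males, against 3.68, 3.91, 3.51 and 3.21 CPM in mof females (0.86 ± 0.09, edgeR adjusted p = 4.61e-06). HIP, an Hsp70-interacting protein gene, was at 8.92, 6.27 and 6.77 CPM in mof males, against 4.25, 3.95, 4.44 and 3.74 CPM in mof females (0.83 ± 0.12, edgeR adjusted p = 9.51e-05). Both stood well above the females, yet both sexes were far below their controls, with control values of 21.6 to 24.3 CPM for CG12096 and 16.1 to 25.7 CPM for HIP. CG12237 behaved alike (0.59 ± 0.09, edgeR adjusted p = 0.000219). Hmr, a hybrid incompatibility gene, passed through mof male 1, at 25.6 CPM against 12.1 and 11.4 CPM in the other males and 7.71 to 9.91 CPM in mof females (0.86 ± 0.31, edgeR adjusted p = 0.0409). Without that library it gave 0.40 (edgeR adjusted p = 0.245), and it did not pass without any 1 mof female or control female either (0.78 to 0.90, smallest edgeR adjusted p 0.0508). CG12096 overlaps Lgr4.

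Among rarer X transcripts, chosen after their values were seen, CG3546 was at 4.74, 4.24 and 3.43 CPM in mof males, against 0.298, 0.20, 0.537 and 0.146 CPM in mof females (3.8 ± 0.43, edgeR adjusted p = 1.46e-05). It also passed in controls (3.66). XRCC1, a repair factor for breaks in single DNA strands, was at 5.17, 2.34 and 3.0 CPM in mof males, against 1.81, 1.40, 1.37 and 1.31 CPM in mof females (1.24 ± 0.25, edgeR adjusted p = 0.00137), and passed in controls too (1.68).

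The same sex comparison in controls called 96 X genes lower and 17 higher, 5.66% and 1% of those tested and 6.66% together, with a median of -0.06. Of autosomal genes 0.274% passed, 0.24% higher and 0.0342% lower, and of all genes 1.3%, 0.365% higher and 0.936% lower. The X median less the autosomal median was -0.08, beside -0.65 in mof embryos. Of the 1238 X genes lower in mof males, 95 were also lower and 1 was higher in control males, and 1142 did not pass there. The 2 comparisons share no library, and across X genes their fold changes had a Pearson correlation of 0.63 and a Spearman correlation of 0.57 over 1696 genes of 13 libraries, as a description, since genes are not replicates. The test of the difference itself, mof less control, called 848 X genes (50%) with a more negative sex difference in mof embryos and 1 (0.059%) with a more positive one, CG12096, 50.1% together. Among autosomal genes it called 218 (2.49%) and 676 (7.71%), 10.2% together, and among all genes 10.2% and 6.56%, 16.7% together. For 827 of the 1238 X genes lower in mof males this difference passed. The control X calls, 113 in all, were 39 to 51 when control male 1, 2 or 4 or control female 3 or 4 was left out, 99 without control female 2, and 207 without mof male 4, which shares the estimate of spread.

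Examples give the scale of that difference. Gapdh2 (X:15868145-15869661), a glycolytic dehydrogenase, was at 177, 181 and 221 CPM in mof males, against 494, 475, 508 and 471 CPM in mof females (-1.34 ± 0.08, edgeR adjusted p = 7.89e-08), or 39.6% of the female level. In controls it was at 361, 316 and 350 CPM in males, against 446, 444 and 447 CPM in females (-0.38, edgeR adjusted p = 0.0354), so the difference of the sex effects was -0.96 (edgeR adjusted p = 9.88e-05). The other X-linked glycolysis gene, the hexokinase Hex-A, was lower by less (-0.64 ± 0.07, edgeR adjusted p = 1.44e-05). Of the 10 autosomal glycolysis genes 2 were higher and 0 lower, beside 28.8% and 14.7% of all autosomal genes, but 4 were higher without mof male 1 and 2 were lower without mof male 4. Among the 2 was the lactate dehydrogenase Ldh (0.30 ± 0.07, edgeR adjusted p = 0.00321). Tak1, the X-linked kinase of the Imd immune pathway, was at 57.4, 50.6 and 58.2 CPM in mof males, against 96.0, 106, 105 and 97.6 CPM in mof females (-0.87 ± 0.06, edgeR adjusted p = 3.09e-07).

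Large protein complexes whose subunits are split between X and autosomes give a matched view. For oxidative phosphorylation, the respiratory chain and ATP synthase of mitochondria, 11 of 12 X-linked genes tested were lower, with a median of -0.90, where 73% of all X genes were lower. Of 56 autosomal genes 12 were lower and 0 higher, with a median of -0.16, where 14.7% and 28.8% of all autosomal genes were. COX6B, a cytochrome oxidase subunit, was at 159, 162 and 186 CPM in mof males, against 364, 334, 324 and 329 CPM in mof females (-0.998 ± 0.07, edgeR adjusted p = 2.85e-07), or 50.1% of the female level. The complex I genes ND-20 (-0.97 ± 0.07) and ND-75 (-0.77 ± 0.07) were close to it (largest edgeR adjusted p 1.53e-06). The X count stayed at 11 without mof male 1 and without mof male 4, while the autosomal count was 2 without mof male 1 and 40 without mof male 4. COX6B is among 8 X-linked members of this list that overlap another gene.

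Ribosomal protein genes differed by less. Of 13 X-linked genes, 12 were lower with a median of -0.32, beside 0 lower and 3 higher of 67 autosomal genes with a median of -0.01, where 73% of all X genes and 14.7% of all autosomal genes were lower. RpS5a (-0.59 ± 0.08, edgeR adjusted p = 5.04e-05) and RpS6 (-0.50 ± 0.06, edgeR adjusted p = 4.4e-05), of the small subunit, had the largest differences of these 12. RpS6 was at 1697, 1555 and 1676 CPM in mof males, against 2404, 2408, 2112 and 2349 CPM in mof females, without overlap. X-linked ribosomal genes thus had a smaller median difference than X genes as a whole (-0.58) and X-linked respiratory genes a larger one. These are descriptions, with no test of the lists against each other.

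Proteasome genes moved in opposite directions by chromosome. All 4 X-linked genes tested were lower, with a median of -0.48, and 26 of 29 autosomal genes were higher and 0 lower, with a median of 0.31, beside 28.8% of all autosomal genes. The X-linked base ATPases Rpt3 and Rpt6 differed by -0.61 ± 0.07 and -0.58 ± 0.06, and the X-linked core subunit Prosalpha4 by -0.24 ± 0.07 (largest edgeR adjusted p 0.0169). Prosalpha4 did not pass without mof male 2 or mof male 4 (-0.18 each, edgeR adjusted p = 0.112 and 0.0762). Rpn2, an autosomal scaffold of the base, was at 153, 158 and 157 CPM in mof males, against 113, 113, 111 and 114 CPM in mof females (0.47 ± 0.05, edgeR adjusted p = 1.67e-05), with no overlap and little spread in either sex. Prosalpha6 (0.39 ± 0.05) and Prosbeta5 (0.47 ± 0.06), core subunits of autosomal genes, were also higher (largest edgeR adjusted p 8.2e-05). In controls proteasome medians were 0.10 over the 4 X genes and 0.02 over the 29 autosomal genes, and none passed. Without mof male 1, 23 of the 29 autosomal genes were higher, and without mof male 4, 28 were. Rpt6 and Prosbeta5 overlap other genes.

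**Figure D4:**
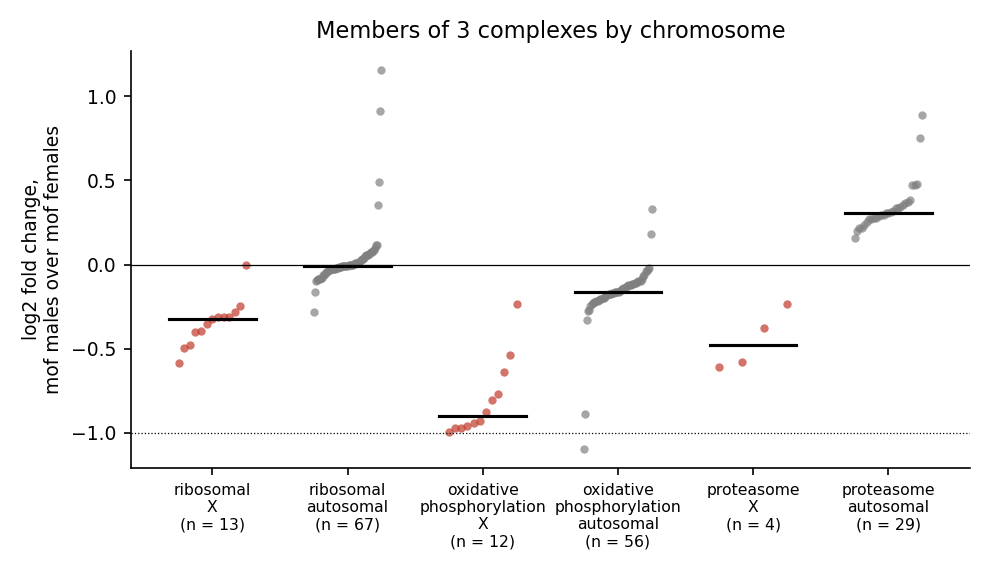
Log2 fold change, mof RNAi males over mof RNAi females, of each tested gene (points, sorted within a group) of 3 complexes, split into X-linked (red) and autosomal (grey) members; bars are medians, and the dotted line is 50% of the female level. X medians are -0.32, -0.90 and -0.48, and autosomal medians -0.01, -0.16 and 0.31.

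Autosomal genes divided into 2525 higher and 1290 lower. These counts depended in part on the scaling. With TMM on autosomal genes only, 2150 were higher and 1591 lower, and the autosomal median was 0.03 in place of 0.07. With the main scaling, the lower count also depended on single libraries, being 702 without mof male 1, 704 without mof male 2 and 1572 without mof male 4. The higher count lay between 2166 and 3144 under the same omissions. X genes lower numbered 1197, 1126 and 1147 without mof male 1, 2 or 4.

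Autosomal chromatin genes of 3 lists were mostly higher. Of 7 autosomal genes on the list for the NSL complex, which includes pzg and Chro, 6 were higher and 0 lower. Of all autosomal genes 28.8% and 14.7% were. The largest difference was in dgt1 (0.57 ± 0.08, edgeR adjusted p = 8.77e-05), followed by Rcd1 (0.38 ± 0.09), pzg (0.38 ± 0.09) and MBD-R2 (0.23 ± 0.05), with a largest edgeR adjusted p of 0.00545. The X-linked member, the WD repeat gene wds, gave -0.15 ± 0.09 (edgeR adjusted p = 0.195). The count for all 8 genes fell to 4 without mof male 1 and to 2 when mof female 3 was left out as well. All 6 autosomal genes for other histone acetyltransferases were higher, and 5 without mof male 1, beside the same 28.8%. Gcn5, of the SAGA complex, was at 71.6, 66.9 and 67.0 CPM in mof males, against 47.1, 48.8, 45.5 and 47.5 CPM in mof females (0.54 ± 0.06, edgeR adjusted p = 1.54e-05). The X-linked Tip60, of the same enzyme family as MOF, was lower (-0.28 ± 0.09, edgeR adjusted p = 0.0196), but not without mof male 2 or mof male 4 (-0.24 and -0.17, edgeR adjusted p = 0.101 and 0.149). Hat1, which acetylates new histones, was highest in mof male 1, at 25.7 CPM against 16.8 and 17.7 CPM in the other males and 7.12 to 10.2 CPM in mof females (1.17 ± 0.25, edgeR adjusted p = 0.00305).

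Of 12 autosomal genes for chromatin factors linked to the X or chromosome 4, 9 were higher and 0 lower, with a median of 0.33, beside 28.8% and 14.7% of all autosomal genes. The histone methyltransferase gene egg (0.80 ± 0.17, edgeR adjusted p = 0.00204), the heterochromatin gene Su(var)3-7 (0.69 ± 0.14, edgeR adjusted p = 0.00202) and the remodeller gene Iswi (0.59 ± 0.11, edgeR adjusted p = 0.00109) were among them. Iswi was at 127, 106 and 93.9 CPM in mof males, against 74.4, 70.4, 65.5 and 79.6 CPM in mof females. Without mof male 1, 7 genes of this list were higher, and without mof male 4, 11 were. In this list no gene passed in controls. dgt1, Gcn5, Tip60, Hat1 and Su(var)3-7 overlap other genes.

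Some autosomal genes of DNA end repair and cell death were higher. Irbp (3R:11410047-11412440) and Ku80 (2L:15768630-15771159) encode the 2 subunits of the Ku heterodimer, which binds broken DNA ends. Irbp was at 8.49, 10.5 and 10.5 CPM in mof males, against 2.71, 3.44, 3.42 and 4.08 CPM in mof females (1.54 ± 0.18, edgeR adjusted p = 2.16e-05). Ku80 was at 10.2, 13 and 13.3 CPM in mof males, against 4.28, 3.87, 4.88 and 4.81 CPM in mof females (1.45 ± 0.12, edgeR adjusted p = 9.2e-07). Every male was more than 2 times the mean of the females for both genes. In controls they gave 0.10 and -0.26 and did not pass, and the difference between mof and control embryos did pass (1.44 with edgeR adjusted p = 0.00288, and 1.71 with edgeR adjusted p = 5.55e-05). In the apoptosis and p53 response list that holds them, 8 of 17 genes were higher and 1 lower, with a median of 0.22, beside 24.4% and 24.1% of all genes. Higher were the initiator caspase Dronc (0.71 ± 0.12, edgeR adjusted p = 0.000536), the effector caspase Drice (0.62 ± 0.09, edgeR adjusted p = 0.00015) and p53 itself (0.54 ± 0.10, edgeR adjusted p = 0.000693), the last of which overlaps another gene. Of the 17 genes, 7 were higher and 1 lower without mof male 1, and 10 higher and 0 lower without mof male 4.

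Among autosomal genes at 4 CPM or more whose groups did not overlap, the largest difference was in CG42792 (2L:15864929-15865461). It was at 11.4, 13.3 and 16.6 CPM in mof males, against 0.650, 0.639, 0.635 and 0.340 CPM in mof females, 23.7-fold (4.57 ± 0.22, edgeR adjusted p = 3.39e-08). In controls it was at 3.56, 3.38 and 5.01 CPM in males, against 0.761, 0.829 and 0.867 CPM in females (2.28, edgeR adjusted p = 0.000431). Both comparisons separated the sexes, and the difference between them passed as well (2.29, edgeR adjusted p = 0.000471). A pair of neighbouring transcripts, chosen after their values were seen, had no count in any mof female. lncRNA:CR42791 (2L:15863200-15863663) had 80 counts over the mof males, at least 42.6-fold higher, and CG44475 (2L:15882783-15883190) had 108, at least 57.5-fold higher, taking 3 counts over the group as the floor. Further autosomal genes that were higher are CG32073 (1.68 ± 0.18), CG5397 (1.65 ± 0.18) and CG18528 (1.6 ± 0.12), with a largest edgeR adjusted p of 9.8e-06. The lowest by the same rule was Fst, a gene of the cold response, at 2.28, 3.11 and 2.21 CPM in mof males, against 13.8, 7.95, 33.5 and 12.7 CPM in mof females (-2.73 ± 0.57, edgeR adjusted p = 0.00314). Fst overlaps another gene, and females differed among themselves by more than 4 times.

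Lists of tissue markers are read against 24.1% of all genes and 14.7% of autosomal genes lower in mof males. Of 16 muscle genes, 11 were lower and 0 higher, with a median of -0.33. Act57B, a larval muscle actin on an autosome, was at 9177, 8657 and 11982 CPM in mof males, against 13019, 13718, 13486 and 12722 CPM in mof females (-0.41 ± 0.10, edgeR adjusted p = 0.00326). Another muscle actin, Act87E, was at 563, 445 and 924 CPM in mof males, against 1059, 1304, 1187 and 1115 CPM in mof females (-0.86 ± 0.21, edgeR adjusted p = 0.00604). In both, males 1 and 2 were low and male 4 lay closer to the females. The mean level of the list, as log2 of CPM plus 1, was 10.26, 10.20 and 10.63 in mof males, against 10.66, 10.74, 10.74 and 10.68 in mof females. Without mof male 1 the count was 8, without mof male 4 it was 14, and without mof male 1 and mof female 3 it was 2. In these bulk pools fewer cells of a type and less RNA per cell cannot be told apart. The pools span ages of 14 to 16 h, and whether they differ in developmental stage was not tested.

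Of 14 neuronal genes, 10 were lower and 0 higher, with a median of -0.27. The X-linked Appl, the fly amyloid precursor protein gene, was at 158, 161 and 166 CPM in mof males, against 266, 292, 309 and 295 CPM in mof females (-0.85 ± 0.06, edgeR adjusted p = 2.85e-07). The autosomal GABA receptor gene Rdl (-0.78 ± 0.15, edgeR adjusted p = 0.00121) and the synaptic vesicle gene nSyb (-0.27 ± 0.07, edgeR adjusted p = 0.00638, but 0.0616 without mof male 1) were also lower. Of 10 glial genes 3 were lower and 2 higher, near the shares of all genes. The X-linked blood-brain barrier receptor gene moody differed by -0.90 ± 0.06 (edgeR adjusted p = 2.81e-07), and the autosomal transporter gene Eaat1 by -0.81 ± 0.30 (edgeR adjusted p = 0.0462). Eaat1 did not pass without mof male 1 or mof male 2 (-0.68 and -0.60), mof female 1, 2 or 3, control female 3 or control male 4. Leaving out mof male 1 left 6 neuronal genes and 1 glial gene lower. moody overlaps another gene.

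Cuticle protein genes, switched on as the larval cuticle forms, had a median of -0.84 over 24 genes, but 2 passed as lower and 1 as higher, fewer than the 24.1% and 24.4% of all genes. Cpr62Bc was at 65.2, 58.7 and 121 CPM in mof males, against 191, 189, 144 and 167 CPM in mof females (-1.08 ± 0.40, edgeR adjusted p = 0.0493), and did not pass without mof male 1 (-0.93, edgeR adjusted p = 0.16), mof male 2 (-0.88) or any 1 mof female (-1.17 to -1.04), nor without control female 2 or 3 or control male 4. Cpr49Ac was higher (0.75 ± 0.14, edgeR adjusted p = 0.000823). The mean list level was 4.97, 5.09 and 5.79 in mof males, against 6.23, 5.97, 5.96 and 6.02 in mof females, and 3.98 to 5.05 and 4.32 to 5.50 in control males and females. Without mof male 4, 11 of the 24 were lower. The X-linked chitin-binding gene obst-A also differed (-1.19 ± 0.21, edgeR adjusted p = 0.000925). Of 14 fat body and hemocyte genes, all autosomal, 4 were lower and 0 higher, beside 14.7% lower and 28.8% higher of all autosomal genes. Without mof male 1, 2 were lower, and without mof male 4, 5 were lower and 1 higher. The 4 include the hemocyte receptor NimC1 (-1.16 ± 0.23, edgeR adjusted p = 0.00136) and the basement membrane gene SPARC (-0.45 ± 0.12, edgeR adjusted p = 0.00972). Of 9 midgut genes 5 were lower and 0 higher, with 3 lower without mof male 1. Of 10 gonad genes 3 were higher and 0 lower. The 3 were among the 7 autosomal members, beside 28.8% higher of all autosomal genes. The count was 2 without mof male 1 and 5 without mof male 4. The 3 include the germline gene piwi (0.73 ± 0.17, edgeR adjusted p = 0.00377), which overlaps another gene.

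Of 22 cell cycle genes 8 were higher and 0 lower, with a median of 0.46, beside 24.4% higher and 24.1% lower over all genes. The count moved with single libraries, being 17 higher without mof male 4, and 7 higher with 1 lower without mof male 1. RnrL, the large subunit of ribonucleotide reductase, was at 75.7, 85.1 and 83.9 CPM in mof males, against 59.9, 55.0, 54.6 and 56.1 CPM in mof females (0.53 ± 0.06, edgeR adjusted p = 1.09e-05), and the replication helicase gene Mcm5 was similar (0.55 ± 0.10, edgeR adjusted p = 0.000511). Mitotic genes were dominated by mof male 1. CycB, the mitotic cyclin, was at 311, 63.0 and 45.1 CPM in mof males, against 33.6, 34.2, 30.0 and 32.7 CPM in mof females (2.10 ± 0.86, edgeR adjusted p = 0.0702). The securin gene pim was at 15.8, 4.37 and 2.96 CPM in mof males, against 1.64 to 2.09 CPM in mof females (2.05 ± 0.73, edgeR adjusted p = 0.0406), and the condensin gene glu behaved alike (1.44 ± 0.46, edgeR adjusted p = 0.0266). Germline transcripts tej (2.49) and rpk (3.82), added after their values were seen, were also highest in mof male 1, and in controls CycB, pim, glu, tej and rpk were highest in male 2. Without mof male 1 none of pim, glu, tej and rpk passed (1.00, 0.89, 1.44 and 1.85, smallest edgeR adjusted p 0.0869), while RnrL and Mcm5 still did. pim and tej also did not pass without any 1 mof female, glu without mof female 1, 2 or 3, and pim without any 1 control female. glu overlaps another gene.

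**Figure D5:**
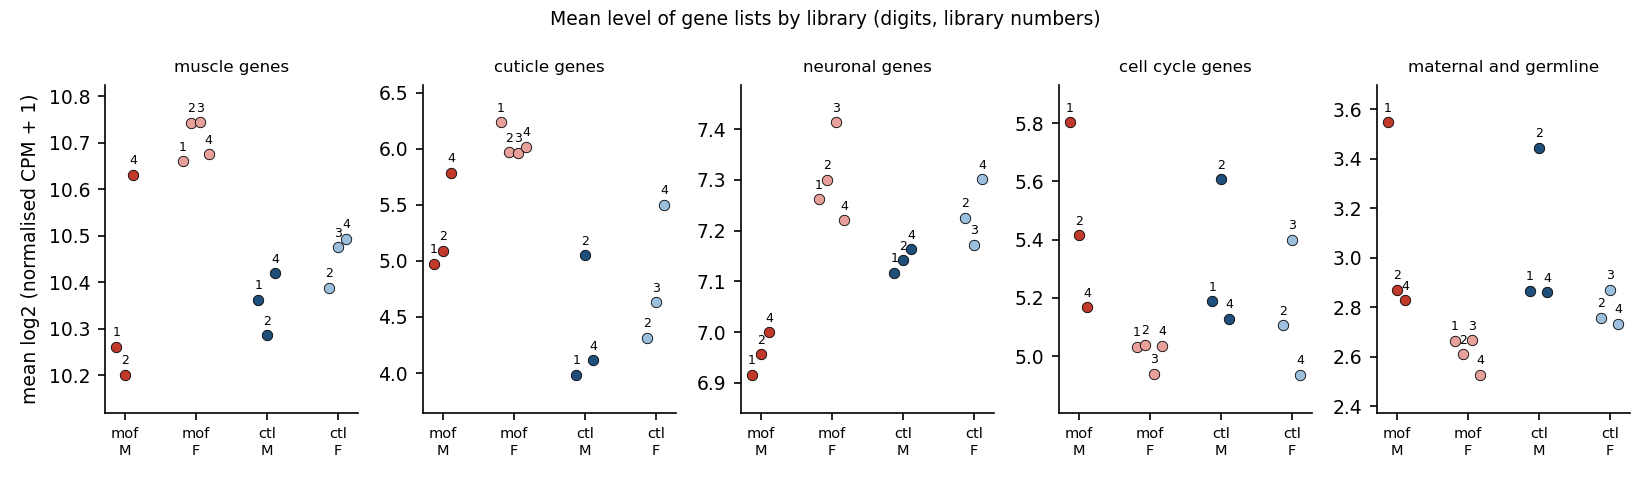
Mean level of 5 gene lists, as log2 of normalised CPM plus 1 averaged over list members, in each late library; digits are library numbers and y axes differ. Mof RNAi male 4 lies nearer to the mof RNAi females than males 1 and 2 do for muscle, cuticle and cell cycle genes, and mof RNAi male 1 and control male 2 stand apart for maternal and germline genes.

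Mof male 4, the male nearest the females for muscle, cuticle and cell cycle genes, had a gap between X and autosomal medians of -0.65. Mof male 2 was close to it (-0.64), and mof male 1, apart for maternal and germline genes, was at -0.59. The summed X:autosome ratio gave another order, with -2.92, -2.98 and -2.96 in mof males 1, 2 and 4. Whether the gap moves with the levels of these lists was not tested. The part of the lists in the counts of single autosomal genes was not tested. The X median less the autosomal median was -0.65 with all libraries, -0.68 without mof male 1 and -0.64 without mof male 4.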

How the data were processed

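The late-stage count table gives whole-number read counts per gene, deposited by the authors, for 13 libraries of TruSeq Stranded mRNA. Mapping was to dm6, per the submitters' processing notes; neither aligner, counter nor strand setting is stated in the sources used here. Of 17558 genes, 17252 were placed on chromosomes with Ensembl release 115, and these took 95.2 to 95.6% of each library's counts. Coordinates are from that annotation.

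Samples were grouped by their titles. The 4 groups were fitted together in edgeR 4.0.16 (R 4.3.3): filterByExpr, which left 10684 genes, TMM scaling, and robust quasi-likelihood tests of males against females in mof RNAi embryos, of the same in controls, and of the difference between them, with Benjamini-Hochberg adjustment over all genes tested and a threshold of 0.05. X:autosome ratios were compared by exact permutation (scipy 1.17.1). No 2 libraries agreed within counting noise. The fit was tested on simulated data in which a small set of genes changed, as many up as down. That setting does not cover a shift of most X genes in 1 direction, as seen here. Alternatives were DESeq2 1.42.0, other scalings and filters, a replicate block, and leaving out libraries.

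The members, gene lists and tests were chosen with earlier results of these data known. Genes named are MSL and sex determination genes, the X genes with the highest CPM, the most changed X and autosomal genes whose groups did not overlap and whose mean log2 CPM reached 2, and members of the lists, not all of which are named; others are said to be chosen later. After the table was seen, 5 list entries were removed because their symbols matched a wrong or ambiguous gene, and a list of maternal and germline transcripts was added. Floors of 3 counts cover counting error only.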

Additional observations from a re-analysis of the deposited data

Results flagged for a closer look

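A mof female library stood apart from the other 3 in 7 of 95 named genes. The rule would flag about 1 gene in 20 by chance if genes were independent. The named genes are not independent and were partly chosen as the most changed, so this number cannot be set against chance. Mof female 3, the library with 40 counts on the Y chromosome, was the highest for CG14795 (9.81 CPM), FDY (1.90 CPM), shi (309.1 CPM) and nSyb (254.5 CPM). For XRCC1 the highest library was mof female 1, at 1.81 CPM. The lowest library was at 0.340 CPM for CG42792, in mof female 4, and at 26.6 CPM for Prosalpha4, in mof female 2.

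The sex difference itself differed between mof and control embryos for 42 of 95 named genes, as tested by the interaction term in edgeR. Of all genes 16.7% passed this test, but 50.1% of X genes and 10.2% of autosomal genes did. Many of the named genes are X-linked, and they were partly chosen as the most changed, so their share cannot be set against that of all genes. Values here are the log2 sex difference in mof embryos less that in controls. Among dosage compensation and sex genes it was -1.38 for mof, -1.53 for roX1, -1.96 for roX2, -0.40 for Sxl and 0.36 for tra2. For mof the control side rests on males that vary, with library 2 at 37.1 CPM.

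Abundant X genes gave -0.39 for RpL7A, -0.41 for RpS6, -0.42 for RpS5a and -0.41 for beta-Spec. Metabolic X genes gave -0.96 for Gapdh2, -0.40 for Hex-A, -0.85 for COX6B, -0.85 for ND-20 and -0.64 for ND-75. Other X genes gave -1.85 for CG7322, -1.12 for CG12116, -1.13 for v, -0.97 for Hk, -0.76 for shi, -0.45 for Appl, -0.52 for moody and -0.79 for Tak1. CG12096 gave 0.93, on the other side.

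Proteasome genes split by chromosome, with -0.77 for Rpt3, -0.58 for Rpt6 and -0.42 for Prosalpha4 on X, and 0.47 for Rpn2, 0.27 for Prosalpha6 and 0.43 for Prosbeta5 on autosomes. Further autosomal genes gave 2.29 for CG42792, 0.92 for CG32073, 0.86 for CG5397, 1.49 for CG18528, 1.44 for Irbp, 1.71 for Ku80, 0.55 for dgt1, 0.43 for Gcn5, 0.50 for Drice, 0.57 for Mcm5 and 0.47 for RnrL. The negative autosomal values were -2.62 for Fst and -1.07 for NimC1.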

How the results depend on the processing

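In mof embryos the X median less the autosomal median was -0.63 with no low count filter, -0.65 to -0.66 under the other alternatives of test, scaling and filter, and -0.68 to -0.64 when 1 library was left out. Single omissions gave 1126 to 1227 X genes lower, 19 to 41 X genes higher, 702 to 1572 autosomal genes lower, 39 to 207 control X genes passing and 1218 to 2946 genes whose sex difference differed between mof and control embryos. The X:autosome difference was -0.54 to -0.51, with exact permutation p of 0.0667 or 0.1, the smallest that those numbers of libraries allow. Without mof male 1 and mof female 3 together, an omission chosen after seeing the data, 1677 genes were lower, 2293 autosomal genes passed and 486 autosomal genes were lower. At a mean of at least 10 CPM, 8 X genes were higher, as fewer genes were tested. Control X genes passing numbered 216 with DESeq2, and the control X median less the autosomal median was -0.050 with no low count filter; the cause was not tested. Replicate numbers do not pair the libraries (correlations of same-numbered deviations -0.28 to -0.13 in mof and -0.49 to -0.45 in control embryos). With the replicate block 1208 X genes were lower in mof males, 18 X genes passed in controls, and the X:autosome difference was -0.52 (exact p = 0.25, the smallest for 3 pairs). Genes that did not pass and turned sign in single omissions were tra (-0.14 to 0.029), w (-0.15 to 0.019) and Hsc70-3 (-0.15 to 0.041).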

Other observations

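X genes were thin just above 0 with the main scaling. With TMM on autosomal genes the X median was -0.62 in place of -0.58, so where the thinning falls relative to equality depends on the scaling. In steps of 0.05 on the log2 scale from -0.2 to 0.2, mof males had 44, 42, 43, 31, 8, 9, 16 and 7 X genes, and 308, 353, 396, 464, 459, 486, 512 and 516 autosomal genes. Of 13 maternal and germline transcripts, a list added after values were seen, 6 were higher and 1 lower in mof males, and 4 and 2 without mof male 1. The lists that follow are read against 24.4% of all genes higher and 24.1% lower. Of 18 Osiris genes, a cuticle-related cluster, 1 was higher and 1 lower, with 0 and 1 without mof male 1 and 2 and 2 without mof male 4. Of 13 heat shock genes 1 was higher and 1 lower, with 1 and 0 without mof male 4. Of 6 innate immune genes 0 were higher and 4 lower, with 1 lower without mof male 1. Of 12 chitin and tracheal genes 1 was higher and 3 lower, with 2 and 2 without mof male 1 and 2 and 4 without mof male 4. Of 6 genes of the early X-counting signal 0 were higher and 1 lower, with 0 and 0 without mof male 1 and 1 and 0 without mof male 4. Of 6 strain marker genes, all X-linked, 0 were higher and 4 lower, where 73% of all X genes were lower.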
